A study of Mus musculus with 4 samples.

Results

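The proneural and intermediate progenitor genes described here are 9 genes that mark the path from a dividing cortical progenitor to a young neuron: Neurog1, Neurog2, Neurod1, Eomes, Tbr1, Insm1, Btg2, Gadd45g and Sstr2. They were taken by symbol from a comparison of 26815 entries, and each of the 9 symbols matched 1 entry. RNA with poly(A) tails had been sequenced from neural stem cells of the E14.5 cortex (mouse strain CD-1), bought from a supplier and kept as a monolayer in EGF and bFGF. All cells carried a lentivirus and had been expanded under puromycin at 0.5 µg/mL. In one group of 2 libraries the vector expressed a scrambled shRNA (SHC002), and in the other group of 2 libraries it expressed an shRNA against Foxp1 (pLKO.1_sh_ex15). The duplicates were cultures of different passages, and each group rests on a single shRNA sequence.

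In the developing cortex, radial glial cells divide and give rise to intermediate progenitors, which divide again and produce glutamatergic neurons. The basic helix-loop-helix (bHLH) factors Neurog1 and Neurog2 start this step: they pair with E proteins, bind E-box sequences, raise Notch ligands and switch on Eomes, Insm1 and Neurod1. Eomes marks the intermediate progenitor, Neurod1 its late phase and Tbr1 the postmitotic deep-layer neuron. Btg2 is an antiproliferative gene of progenitors that make neurons, Gadd45g is a stress-inducible growth arrest gene that cortical progenitors switch on as they enter neurogenesis, and Sstr2 encodes a receptor for the peptide somatostatin.

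The values are a single comparison of a pooled condition coded q2 with one coded q1, and nothing in the labels or headers says which shRNA either code stands for. Each direction below is therefore q2 relative to q1, levels per library or condition were not used, and no spread between the duplicates can be given. Foxp1, the gene that the shRNA targets, had a log2 fold change of -2.03 per the authors' deposited table (Cuffdiff q = 0.00162). That value does not assign the codes here. Depth is unknown.

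Of the 9 genes, 4 were tested by Cuffdiff and 1 of these 4 was called at a q under 0.05, Sstr2, which was 2.62-fold higher in q2 per the authors' deposited table. The other 3 tested genes, Insm1, Btg2 and Gadd45g, lay within 0.22 of 0 on the log2 scale per the authors' deposited table and were not called. The remaining 5, Neurog1, Neurog2, Neurod1, Eomes and Tbr1, were not tested, a status Cuffdiff gives to entries with too few aligned reads. Among all 15315 tested entries 7.63% were called, 4.24% higher and 3.39% lower in q2. With 4 tested members, a count of 1 cannot be set apart from that background. The untested share was 55.6% of the members, 42.9% of all entries and 47.4% of the entries with a gene symbol of their own. The median log2 fold change was -0.02 for the 4 tested members, beside -0.05 over all tested entries.

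**Figure D1:**
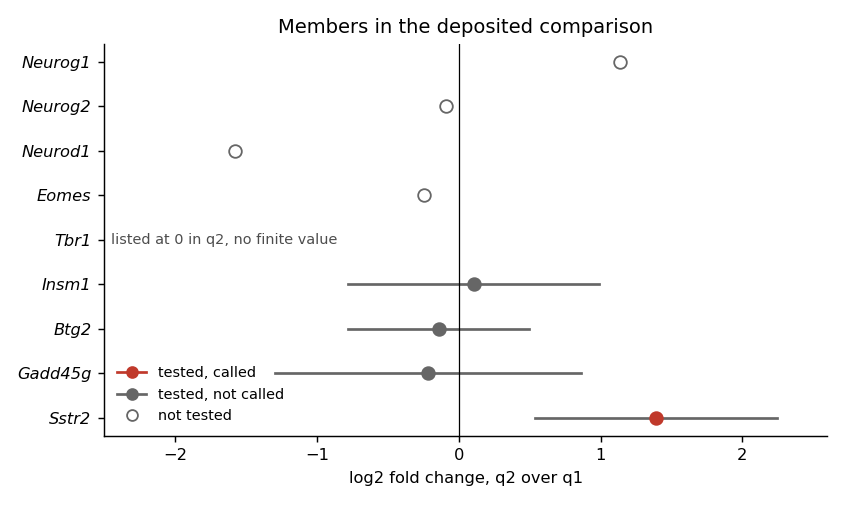
The x axis is the log2 fold change, q2 over q1, for the 9 genes (y axis) per the authors' deposited table; filled points are tested genes, red if called, with 95% intervals from the implied error (the fold change divided by its statistic), and open points were not tested and have no error. Sstr2, at 1.39, is the 1 tested gene whose interval lies wholly on one side of 0.

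The promoter windows of the called Sstr2 and of the uncalled Gadd45g are shown because the proneural factors act through E-boxes (CANNTG, the same on both strands) and these windows differ in them. RefSeq (GRCm38.p6) held a window for 8 of the 9 genes, from 250 bases before to 50 after the annotated start. In the lines below, read 5′ to 3′ on the gene's strand, E-boxes are in capitals. The Gadd45g window (chr13:51846425-51846724, plus strand) holds 3, and the Sstr2 window (chr11:113619077-113619376, plus strand) holds none.
Gadd45g: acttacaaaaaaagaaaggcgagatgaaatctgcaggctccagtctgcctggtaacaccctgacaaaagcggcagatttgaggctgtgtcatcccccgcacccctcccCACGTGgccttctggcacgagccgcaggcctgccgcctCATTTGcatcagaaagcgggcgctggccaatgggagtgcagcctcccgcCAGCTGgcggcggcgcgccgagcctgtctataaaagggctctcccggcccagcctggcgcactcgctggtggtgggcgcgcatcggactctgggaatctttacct
Sstr2: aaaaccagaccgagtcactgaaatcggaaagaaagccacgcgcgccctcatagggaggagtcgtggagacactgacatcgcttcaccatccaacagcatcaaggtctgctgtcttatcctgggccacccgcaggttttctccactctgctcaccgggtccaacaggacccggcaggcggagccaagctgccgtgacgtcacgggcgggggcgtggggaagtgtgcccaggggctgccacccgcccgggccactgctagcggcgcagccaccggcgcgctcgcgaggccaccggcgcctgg

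The 3 E-boxes of Gadd45g read CACGTG, then CATTTG, and nearest the start CAGCTG. An E-box was found in 4 of the 8 windows, those of Gadd45g, Neurog1 (CACTTG), Neurod1 (CATATG) and Tbr1 (CAGGTG), and in 72.3% of all 32851 windows of 300 bases. At least 3 E-boxes were found in 17.6% of all windows. The window of Btg2, tested and not called, held 0 E-boxes like that of Sstr2, and Insm1 had no window. The core of the forkhead motif, TGTTTAC on either strand, was in 0 of the 8 windows and in 3.65% of all windows. No binding was measured here, and these letters describe the windows only.

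The factors at the head of the path could not be compared. Neurog1 (GRCm38 chromosome 13, 56250498 to 56252163, a gene of 1 exon on the minus strand) was listed at a log2 fold change of 1.14 per the authors' deposited table without a test. The same value to within 0.0001 was given to 30 untested entries, Neurog1 included, and to 5 tested ones. Its paralogue Neurog2 (chromosome 3, 127633145 to 127635631) was listed at -0.09 per the authors' deposited table, also untested. Neurod1 (chromosome 2, 79452641 to 79456636) stood at -1.57 per the authors' deposited table, the most negative finite value of the 9. None of these 3 values carries an error or a p-value, so their different signs are not evidence of a difference. In the GENCODE M21 annotation the Neurod1 locus also overlaps Cerkl on the same strand and the long noncoding RNA Gm26755 on the opposite one, while the authors' Cerkl locus ends before Neurod1 begins.

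The markers of the intermediate progenitor and of its daughter neuron had no test either. Eomes, the T-box factor of intermediate progenitors (chromosome 9, 118478189 to 118486132, up to 6 exons), was listed at -0.24 per the authors' deposited table. Tbr1, the T-box factor of deep-layer neurons (chromosome 2, 61804453 to 61814113), was listed at a log2 fold change of minus infinity per the authors' deposited table. It thus has no finite fold change, and the entry stands for 0 in q2 and above 0 in q1. That pattern is shared by 717 untested entries, Tbr1 among them, and by 65 tested ones. A part of the Eomes locus is covered by the antisense gene Gm33460 in GENCODE M21. Whether reads were counted by strand is not given in the sources used here.

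Insm1, a zinc finger repressor that promotes the formation of intermediate progenitors (chromosome 2, 146221997 to 146225018, 1 exon), was tested and had a log2 fold change of 0.11 per the authors' deposited table (Cuffdiff q = 0.914). Dividing the fold change by its statistic gives an implied error of 0.45 and a 95% interval of -0.78 to 0.99. Btg2 (chromosome 1, 134074865 to 134079155) was at -0.14 per the authors' deposited table, with an interval of -0.78 to 0.50 and a Cuffdiff q of 0.819. Gadd45g (chromosome 13, 51846675 to 51848474) was at -0.22 per the authors' deposited table, with an interval of -1.30 to 0.86 and a Cuffdiff q of 0.833. All 3 intervals include 0, and only that of Gadd45g reaches the median absolute change of called entries, 1.09. They assume a normal distribution and are wider than Cuffdiff's own test implies, whose p reached 0.05 at an absolute statistic of 1.41. The missing calls do not show that these genes were alike in the 2 conditions. The direction of Insm1 is not fixed: it was at -0.23 once the trend of fold change with transcript GC content was removed, and Gadd45g was then at -0.56, with neither called.

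Sstr2 (chromosome 11, 113619396 to 113625991) was the exception among the tested genes. Its log2 fold change per the authors' deposited table was 1.39, with a 95% interval of 0.54 to 2.25 from an implied error of 0.44, an unadjusted p of 5e-05 and a Cuffdiff q of 0.00162. That p is the smallest the table holds and is shared by 472 entries, so it does not rank the gene. Among tested entries with a finite value, 3.15% had a higher log2 fold change and 2.80% a larger absolute statistic; 241 called entries had a higher log2 fold change. For comparison, called entries had a median absolute change of 1.09 on the log2 scale per the authors' deposited table. Under 3 other scalings its log2 fold change ran from 1.33 to 1.44, and it stayed called. With p-values read from a normal distribution of the statistic its Benjamini-Hochberg adjusted q was 0.0483, just under the limit. In GENCODE M21 the gene lies inside the locus of Slc39a11, a zinc transporter gene on the opposite strand. The authors' Slc39a11 locus ends before Sstr2 begins, and that gene was at 0.17 per the authors' deposited table (Cuffdiff q = 0.783).

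**Figure D2:**
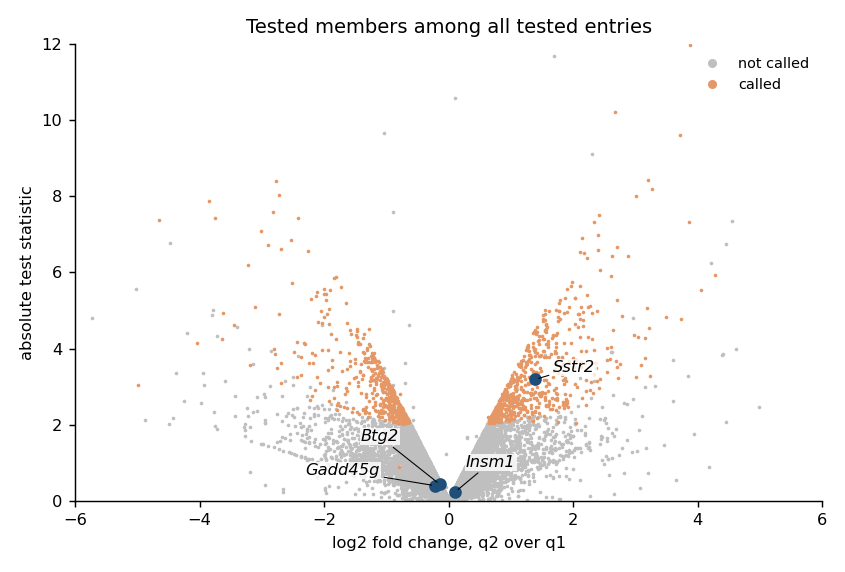
The x axis is the log2 fold change, q2 over q1, and the y axis the size of Cuffdiff's statistic, for 15181 tested entries of the authors' deposited table, called ones in orange and the others in grey; 16 entries beyond a statistic of 12 or a log2 fold change of 6 lie outside the axes. Insm1, Btg2 and Gadd45g sit at the base of the plot with absolute statistics of 0.23, 0.43 and 0.40, and Sstr2 lies among the called entries at 3.19.

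**Figure D3:**
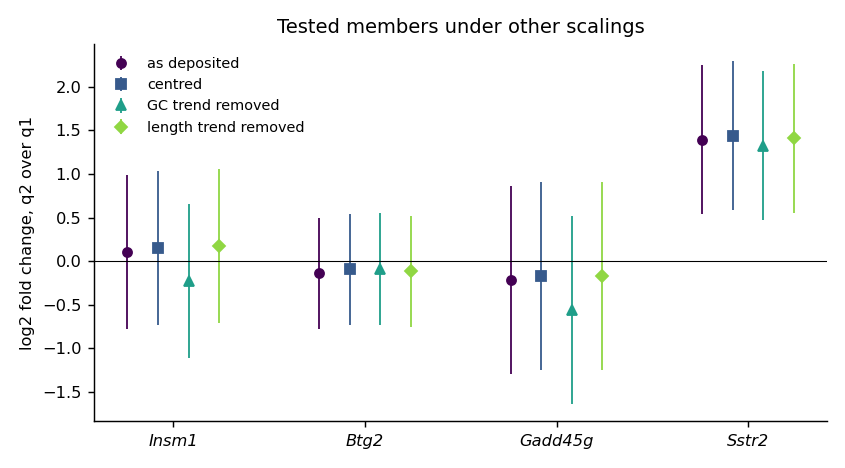
The y axis is the log2 fold change, q2 over q1, of the 4 tested genes (x axis) as given by the authors' deposited table, centred on the median of all tested entries, and with the trend on transcript GC content or length removed; bars are 95% intervals from the implied error. Insm1 moves from 0.11 to -0.23 with the GC trend removed, and Sstr2 stays between 1.33 and 1.44.

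The relatives of Sstr2 gave little to set beside it. Of somatostatin, cortistatin and 4 further receptors, 1 of 6 was tested: Cort, which encodes the related peptide cortistatin, at 1.92 per the authors' deposited table, with an interval of -1.28 to 5.12 (Cuffdiff q = 0.447). Sstr1 was listed at -0.17 and Sstr3 at 1.77 per the authors' deposited table, without a test. Sst and Sstr5, also untested, were listed at an infinite log2 fold change, which stands for 0 in q1. For the relatives of Btg2, 1 of 4 tested genes was called: Btg3, an antiproliferative gene of the same family, 1.69-fold higher in q2 per the authors' deposited table (Cuffdiff q = 0.0407). Btg3 lost that call when p was read from the statistic (Benjamini-Hochberg adjusted q = 0.0573). Btg1 at -0.03 and Tob1 at 0.31 were not called per the authors' deposited table. None of the 3 relatives of Gadd45g was called by Cuffdiff, and 0 of them had an unadjusted p under 0.05. Gadd45a was at 0.24 and Gadd45b at -0.20 per the authors' deposited table.

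Most other bHLH factors of neurogenesis were untested, like the Neurog genes. Of 10 with an entry of their own, 9 were not tested, and 3 of the 9 were listed at a log2 fold change of exactly 0. Bhlhe22 has a pair of entries over the same locus, at 0.60 and -0.48 per the authors' deposited table, both tested and neither called. It was left out of the counts because neither entry has a symbol of its own. The partners and inhibitors of these factors were all tested, 10 of 10, with 1 called higher and 1 lower. Tcf3, which encodes the E proteins E12 and E47, was 1.69-fold higher in q2 per the authors' deposited table (Cuffdiff q = 0.0188). It was no longer called with the GC trend removed, at 0.42 (Benjamini-Hochberg adjusted q = 0.329). Hes5, a Notch-induced repressor of proneural genes, was 1.76-fold lower per the authors' deposited table (Cuffdiff q = 0.0188). The inhibitors Id1 at 0.74 and Id3 at 0.49 were not called per the authors' deposited table. The median of these 10 genes was 0.14.

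Among 10 tested genes that proneural factors are known to switch on, 1 was called, lower in q2, and 9 were not; the median was -0.27. Dll3, a divergent Notch ligand, was 2.55-fold lower per the authors' deposited table (log2 fold change -1.35, interval -2.06 to -0.64, Cuffdiff q = 0.00162). Hes6, a bHLH-Orange factor that antagonises Hes1, stood at -0.55 (Cuffdiff q = 0.155) and Mycn at 1.44 (Cuffdiff q = 0.0951) per the authors' deposited table. After removal of the GC trend 3 were called lower, Hes6 at -0.89, Cdk5r1 at -0.89 and Dll3 at -1.69. Over all tested entries that setting gave 951 calls (6.21%), 436 of them lower in q2, and the list was not tested against this share. Cdk5r1, which encodes the p35 activator of Cdk5, was chosen after its values were seen.

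Of 7 further tested genes that mark intermediate progenitors, 1 was called higher and 1 lower. Rhbdl3, which encodes a rhomboid-like protein, was 4.01-fold lower in q2 per the authors' deposited table (Cuffdiff q = 0.00162). Unc5d, a netrin receptor gene of the subventricular zone, was 2.48-fold higher per the authors' deposited table (Cuffdiff q = 0.00162). The pair thus moved in opposite directions. Elavl2 at -0.35 was not called per the authors' deposited table, and the median of the 7 was -0.26. Hes6 and Elavl4 belong to this list and to the preceding one.

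The transcription factors that act upstream of Neurog2 and Eomes in the cortex were tested in 7 of 8 cases, of which Cuffdiff called 0 and 1 had an unadjusted p under 0.05. That gene was Nr2e1, an orphan nuclear receptor of neural stem cells, at -0.67 per the authors' deposited table (Cuffdiff q = 0.079). Gli3 was at 0.35 per the authors' deposited table (Cuffdiff q = 0.44), and the median of the 7 was 0.04. Genes of glutamatergic cortical neurons were tested in 3 of 10 cases. Tle4, a corepressor gene of deep-layer neurons that progenitors also express, was called 1.82-fold higher in q2 per the authors' deposited table (Cuffdiff q = 0.00292). Sox5 at -0.31 was not called per the authors' deposited table.

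T-box genes other than Eomes and Tbr1 were tested in 5 of 15 cases. Tbx2 was 3.70-fold higher in q2 per the authors' deposited table (Cuffdiff q = 0.00162). Tbx15 had the largest change of the list at -5.72 per the authors' deposited table, with an interval of -8.06 to -3.39, yet a Cuffdiff q of 0.149. It was called when p was read from its statistic of -4.80 (Benjamini-Hochberg adjusted q = 0.00457). The brachyury gene T stood at 1.72 per the authors' deposited table (Cuffdiff q = 0.107). Among the partners of Insm1, Cuffdiff called 0 of 6 tested genes, with 1 at an unadjusted p under 0.05. That gene was Ccnd1, which encodes cyclin D1, a binding partner of Insm1, at 0.63 per the authors' deposited table (Cuffdiff q = 0.0671), and the corepressor gene Rcor1 was at 0.37.

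**Figure D4:**
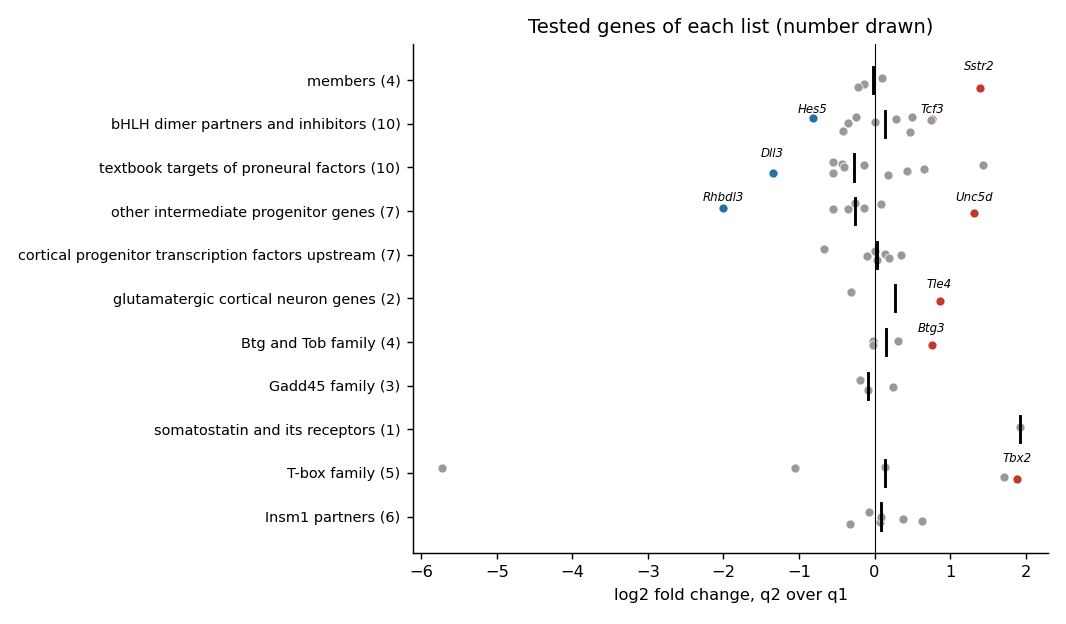
The x axis is the log2 fold change, q2 over q1, from the authors' deposited table, and the y axis names each list with its number of genes drawn, with red points called higher, blue points called lower and grey points not called; black bars are medians of the points drawn, and 2 tested genes are not drawn. Called genes fall on both sides of 0, from Rhbdl3 at -2.00 to Tbx2 at 1.89.

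Over all 11 lists together, without the 9 members, 55 of 92 genes were tested, 5 were called higher and 3 lower, and the median was 0.04. The 8 calls among 55 tested genes stand beside the 7.63% called over the whole table, and the list was not tested against it. With p-values read from a normal distribution Tcf3, Hes5, Unc5d, Tle4 and Btg3 were no longer called, and Dll3, Rhbdl3 and Tbx2 were.

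As a check of the labelled cell type, 5 of 6 neural stem cell markers had enough reads for a test (Nes, Sox2, Vim, Fabp7 and Slc1a3). Of 6 neuron markers, 3 were tested (Map2, Tubb3 and Elavl3) and 3 were not (Dcx, Stmn2 and Rbfox3). Astrocyte markers were tested in 5 of 5 cases and oligodendrocyte lineage markers in 4 of 5, so testing status does not single out the labelled cell type. Testing status is the only sign of level used here. Of those 5 stem cell markers 2 were called per the authors' deposited table, in opposite directions: Nes, which encodes the intermediate filament nestin, was at 0.75, and Fabp7, which encodes a radial glial fatty acid binding protein, at -1.13. Of the astrocyte markers 4 of 5 were called lower in q2, with a median of -0.88. Aldh1l1 was near the limit (Cuffdiff q = 0.0453), and S100b at -0.20 was not called per the authors' deposited table (Cuffdiff q = 0.758). Over all tested entries 7.63% were called, 3.39% lower in q2. Oligodendrocyte lineage markers were tested in 4 of 5 cases, and 2 were called. Pdgfra, the receptor gene of oligodendrocyte precursors, was 7.09-fold lower in q2 per the authors' deposited table (log2 interval -3.56 to -2.10). Mbp, which encodes a myelin protein, was 3.37-fold higher per the authors' deposited table, with a wide log2 interval of 0.10 to 3.40. Of 3 tested neuron markers 1 was called lower and 0 higher, with a median of -0.65. Of the markers of ventral forebrain GABAergic cells, microglia, endothelium and fibroblasts, 1 of 6, 2 of 5, 1 of 4 and 1 of 5 were tested and Cuffdiff called 0, with 0 at an unadjusted p under 0.05. Fewer cells of a type and less RNA per cell cannot be told apart in bulk RNA. The part of these shifts in the value of Sstr2 was not tested.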

How the data were processed

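Poly(A) RNA of 4 libraries, 2 per shRNA, was measured, with groups read from sample titles. Library preparation used a SOLiD RNA-Seq kit, per the labels' protocols. Per the submitters' processing notes, the authors used TopHat2 2.0.9, Cufflinks 2.2.1 and Cuffdiff with build mm10 (GRCm38); for annotation, filters and strand use, nothing is stated (not given in the sources used here). The authors deposited a table with a log2 fold change of q2 over q1, a test statistic (a score), p-values and q-values per entry, per the file headers. All 15315 q-values equal a Benjamini-Hochberg adjustment across all genes tested (relative tolerance 0.001). The 2 columns of per-condition values belong to no labelled group and were left out, so depth is unknown.

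The members, lists and rule for named genes were chosen with earlier results of these data known. The rule took the 9 members, Foxp1, each called list gene and up to 2 uncalled ones per list with the largest statistic; a few of these are not reported here. The implied error is the log2 fold change over the statistic; its 95% intervals assume a normal distribution. Starts count from 1. Transcript GC content and length (GENCODE M21) covered 95.1% of tested genes with a symbol of their own; trends were medians in 50 bins, and p was then read from a falling fit of the authors' p on their statistic. The procedure was tested on simulated fold changes with normal noise and a linear GC trend, a simpler setting than these data. Alternatives were other q limits, a minimum fold change, normal p-values, adjustment over genes with a symbol of their own, centring, and GC or length trends; p read from the statistic without a correction was added after seeing the data. Analyses ran in Python 3.11.15 with scipy 1.17.1, numpy 2.4.6 and pandas 2.3.3; fits used scikit-learn 1.9.0, and plots matplotlib 3.10.9.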

Additional observations from a re-analysis of the deposited data

How the results depend on the processing

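Sstr2 was the 1 called gene among the 4 tested members under all 9 alternatives, with its adjusted q between 0.00135 and 0.0483. The latter came from p-values read from a normal distribution, where the whole table had 457 calls in place of 1168. At the deposited q of 0.00162 and log2 fold change of 1.39, the other q limits and the minimum fold change could not remove the Sstr2 call. The median log2 fold change of the 4 tested members, -0.02, was 0.03 after centring, -0.16 with the GC trend removed and 0.03 with the length trend removed. Of the 8 calls in the related lists, 5 were left at q under 0.01 and 4 with an absolute log2 fold change of at least 1; normal p-values gave 4, namely Dll3, Rhbdl3, Tbx2 and, not called by the authors, Tbx15. The whole table then had 667 calls at q under 0.01 and 687 with the minimum fold change. Other settings raised the list count: 11 at q under 0.1, 10 with the GC trend removed, 9 after centring and 9 with the length trend removed. In the same order the whole table had 1602, 951, 1204 and 1107 calls. Tbx15 was also called after centring and with either trend removed. Among the 8, normal p-values removed the calls of Tcf3, Hes5, Unc5d, Tle4 and Btg3; the cause was not tested. No paired analysis was possible because the table holds a single comparison of pooled conditions and no value per library, and for the same reason no replicate could be left out. Depth cannot be assessed, and 5 of the 9 genes have no test at any setting.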

Other observations

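Some of the untested entries share a small set of fold changes, among 2142 distinct values. Of 3226 untested entries with a finite log2 fold change other than 0, 584 (18.1%) lay on 26 values that at least 10 entries shared to 4 decimals. The 1.14 of Neurog1 is such a value. Nhlh1 and Nhlh2, bHLH genes of young neurons on different chromosomes, were both listed at 1.29 per the authors' deposited table, a value given to 10 untested entries in all. The log2 fold changes of Neurog2, Eomes and Neurod1 were given to 1, 1 and 2 untested entries, themselves included.

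Mycn had a larger log2 fold change than Sstr2 per the authors' deposited table, 1.44 beside 1.39, and was not called. Its implied error was 0.72 beside 0.44 for Sstr2. A similar pair was Cort at 1.92, with an implied error of 1.63 and no call, and Tbx2 at 1.89, with an implied error of 0.49 and a call, per the authors' deposited table.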
